A study of Mus musculus with 12 samples.

Results

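The smooth muscle contractile apparatus was followed here through 10 genes in mouse aortic valves collected 10 days after birth (P10). The genes were Myh11, Myl9, Mylk, Acta2, Actg2, Cnn1, Tagln, Lmod1, Smtn and Synpo2. Each was found by its symbol in a table of fold changes that the authors deposited, which lists 13959 genes whether changed or not, and its counts were taken from the row with the same gene identifier. All 10 were present among the 20620 genes of the count table. All 10 passed the filter on low counts that left 19346 genes for testing. The genes were put together with the difference between the libraries labelled Notch1+/-;Gata5-/- and wildtype in view, so they were chosen by measured fold changes and p-values of that comparison, whose values and counts are given only as a description.

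RNA was sequenced from 12 pools of 3 aortic valves each, 4 pools per group. The first group was labelled Notch1+/-;Gata5-/-, that is, with 1 Notch1 copy and no Gata5 copy. The second was labelled Notch1+/-;Gata5+/-, with 1 copy of each gene, and the third was wildtype. Below, these groups are called the Gata5-/- and the Gata5+/- libraries, and both names include the Notch1+/- label. Both mutant groups share the Notch1+/- label, so none of these libraries separates a loss of Notch1 from a loss of Gata5 against wildtype. The labels used here name neither the design of the alleles nor the cells in which they act. Notch1 encodes a receptor of signalling between neighbouring cells, and Gata5 a GATA family transcription factor of heart development.

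In smooth muscle, calcium bound to calmodulin activates myosin light chain kinase, which phosphorylates the regulatory light chain and lets smooth muscle myosin pull on actin filaments. Calponin, transgelin, smoothelin, leiomodin and synaptopodin 2 bind those actin filaments, and their genes are textbook markers of the contractile state. Many of these genes are known targets of serum response factor (Srf) and its partner myocardin (Myocd), which act at a DNA element called the CArG box. In the heart outflow, contractile smooth muscle forms the wall of the aorta, and interstitial cells of valves can take on some of the same genes.

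Because the CArG box is the element that links these genes to Srf, the 250 bases upstream of the start were read for the members that RefSeq's promoter table (GRCm38.p6) lists. It lists 7 of the 10 members, and Myh11, Tagln and Actg2 were not among the matches. Acta2 and Myl9 are shown for their matches, which are in capitals. Synpo2 and Cnn1 are shown as 2 of the members with the largest negative fold changes and hold no CArG match, so their stretches have no capitals. Each is written 5′ to 3′ on the strand of the gene.
Acta2, chr19:34255374-34255623 (- strand): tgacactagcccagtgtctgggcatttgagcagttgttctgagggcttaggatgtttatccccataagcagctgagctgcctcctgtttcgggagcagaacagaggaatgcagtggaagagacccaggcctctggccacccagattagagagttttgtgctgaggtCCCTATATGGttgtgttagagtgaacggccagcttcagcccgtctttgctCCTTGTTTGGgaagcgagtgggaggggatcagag
Myl9, chr2:156775214-156775463 (+ strand): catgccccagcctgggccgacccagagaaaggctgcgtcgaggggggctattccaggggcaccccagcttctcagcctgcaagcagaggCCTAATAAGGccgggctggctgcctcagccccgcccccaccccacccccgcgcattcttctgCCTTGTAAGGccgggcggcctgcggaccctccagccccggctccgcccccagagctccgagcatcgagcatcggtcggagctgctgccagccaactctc
Synpo2, chr3:123236150-123236399 (- strand): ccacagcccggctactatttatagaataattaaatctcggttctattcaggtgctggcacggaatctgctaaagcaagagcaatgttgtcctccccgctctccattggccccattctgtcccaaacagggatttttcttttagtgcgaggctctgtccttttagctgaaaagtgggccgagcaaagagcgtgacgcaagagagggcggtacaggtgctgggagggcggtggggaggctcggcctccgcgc
Cnn1, chr9:22099003-22099252 (+ strand): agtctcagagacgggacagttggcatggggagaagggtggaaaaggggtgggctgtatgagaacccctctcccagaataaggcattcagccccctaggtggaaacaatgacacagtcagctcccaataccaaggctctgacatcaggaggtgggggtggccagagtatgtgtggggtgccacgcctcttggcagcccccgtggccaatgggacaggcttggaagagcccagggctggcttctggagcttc
A CArG box, an unbroken stretch of A and T between CC and GG, was present in Myl9 as CCTAATAAGG, starting 161 bases upstream of the start. With 1 G or C allowed inside the stretch, Myl9 held CCTTGTAAGG at 99 bases, and Acta2 held CCCTATATGG at 84 bases and CCTTGTTTGG at 34 bases. The strict form was found in 1.47% and the form with exactly 1 G or C in 7.24% of 32851 promoters over the same 250 bases. All motifs were searched on both strands, and no match to 1 motif overlapped a match to another in the stretches printed. The letters CATTCC or their reverse complement GGAATG were found in Mylk, Acta2, Smtn and Lmod1 and in 12.6% of promoters. TATAAA or its reverse complement TTTATA was found in Synpo2, starting 233 bases upstream, and in 12.4% of promoters. A match of letters is a description and not a binding site, and a window without one does not speak about the factor.

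Library totals were 13866604 to 25059653 counts. Gata5-/- replicate 3 had 6000 genes at 0, wildtype replicate 2 followed with 3208, and all others had between 1017 and 2908. Their mean Spearman correlations with the other libraries across genes were 0.891 and 0.923, against 0.930 to 0.947, so both stand apart, and fits without them are given below. Gata5 had 0 counts in every Gata5-/- library, where 3 counts would be 0.124 to 0.207 CPM (counts relative to the scaled library total). It averaged 4.09 ± 2.27 CPM in the Gata5+/- libraries and 1.77 ± 1.03 CPM in wildtype (SD, n = 4 each). Notch1 averaged 185 ± 29.5 CPM in the Gata5-/- libraries and 172 ± 20.6 CPM in the Gata5+/- libraries, against 128 ± 26.4 CPM in wildtype (SD, n = 4 each). Its RNA was therefore not lower under either Notch1+/- label, and no base or exon of the deleted part is known here, so these counts do not check that label.

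The members differed widely in level. Per kilobase of exon, the wildtype level was 657 ± 116 CPM per kb for Acta2 and 607 ± 69.6 for Tagln (SD, n = 4). The wildtype level per kb was 310 ± 48.1 CPM for Myh11, 185 ± 40.6 CPM for Myl9 and 101 ± 18.4 CPM for Cnn1. It was 58.5 ± 7.80 CPM per kb for Lmod1, 42.7 ± 7.79 for Smtn, 39.3 ± 4.19 for Mylk, 29.0 ± 2.32 for Synpo2 and 20.9 ± 5.50 for Actg2. The wildtype libraries overlapped between the neighbours Acta2 and Tagln, Lmod1 and Smtn, and Smtn and Mylk, and the other neighbours in this order did not overlap. The same order of means held in both mutant groups. No stretch of 100 bases of any member's transcripts was shared with another gene of the annotation, and stretches of 50 bases were shared for 0.340% of Myh11 and 0.326% of Acta2, the highest shares of the 10. Together the 10 genes took 0.403% to 0.495% of all counts in the Gata5-/- libraries, 0.513% to 0.555% in the Gata5+/- libraries and 0.554% to 0.766% in wildtype.

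All 10 genes had their lowest mean in the Gata5-/- libraries, an intermediate mean in the Gata5+/- libraries and their highest mean in wildtype. The same order of means was seen in 23.5% of all genes tested, and an intermediate mean in 43.5% of the genes that, like the members, had a lower Gata5-/- than wildtype mean. Since the members were chosen for the lower end of that order, only the place of the middle group was not set directly. The 43.5% covers genes with any lower Gata5-/- mean, not matched to the members in the size of that difference. A wide difference leaves more room for an intermediate mean, so 43.5% is no chance level for the members. In bulk RNA, fewer smooth muscle cells and less of these RNAs per cell cannot be told apart.

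**Figure D1:**
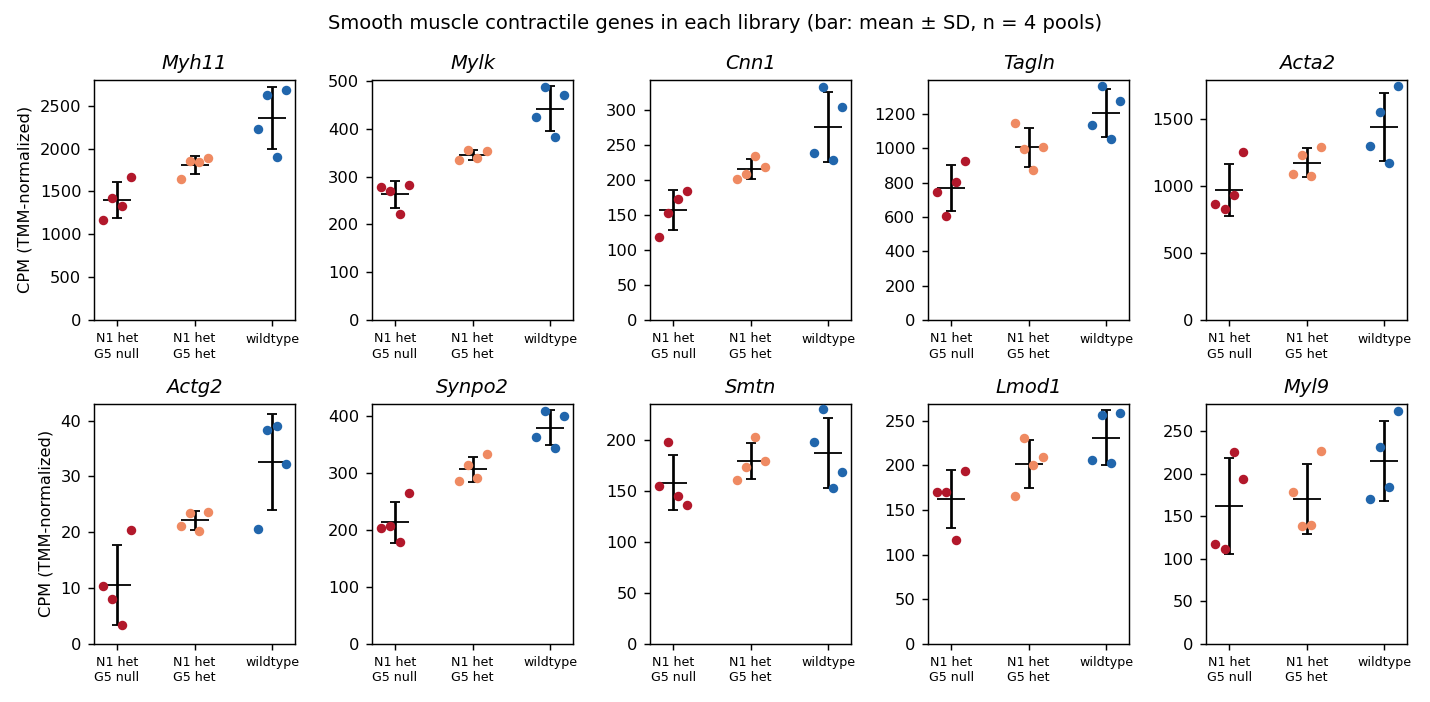
Normalized level of each of the 10 genes (y axis, CPM, from 0) in each library, with the group mean as a bar and the SD as whiskers (n = 4 pools). The axis labels stand for Notch1+/-;Gata5-/- (N1 het, G5 null), Notch1+/-;Gata5+/- (N1 het, G5 het) and wildtype, and for Myh11 the Notch1+/-;Gata5-/- pools sit at 1169 to 1666 CPM and the wildtype pools at 1901 to 2683 CPM.

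Of the motor proteins, Myh11 (ENSMUSG00000018830, chromosome 16) encodes the heavy chain of smooth muscle myosin. Myh11 had 1169, 1426, 1328 and 1666 CPM in Gata5-/- replicates 1 to 4, 1648, 1857, 1839.8 and 1891 CPM in the Gata5+/- libraries, and 2226, 2619, 1901 and 2683 CPM in wildtype. Every Gata5-/- or Gata5+/- library was below every wildtype library, and both mutant groups met where replicate 4 of Gata5-/- reached above replicate 1 of Gata5+/-. For Myh11, the log2 fold change was -0.75 (SE 0.12) for Gata5-/- against wildtype. It was -0.38 (SE 0.12, exact permutation p = 0.0286) for Gata5+/- against wildtype and -0.37 (SE 0.12, exact permutation p = 0.0571) for Gata5-/- against Gata5+/-. The mean of log2 CPM in Gata5+/- stood 50.8% of the way up from Gata5-/- to wildtype.

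Myl9 (ENSMUSG00000067818, chromosome 2) encodes the regulatory light chain that the kinase phosphorylates. Myl9 had 117, 111, 226 and 194 CPM in Gata5-/- replicates 1 to 4, 178, 139, 139 and 226 CPM in the Gata5+/- libraries, and 170.0, 231, 184 and 274 CPM in wildtype. Replicates 3 and 4 of Gata5-/- lay within the wildtype range and replicates 1 and 2 below it, so the spread inside that group was wider than the step between group means. The fitted Myl9 log2 fold change was -0.41 (SE 0.24) for Gata5-/- against wildtype, -0.33 (SE 0.24, exact permutation p = 0.229) for Gata5+/- against wildtype and -0.07 (SE 0.24, exact permutation p = 0.714) for Gata5-/- against Gata5+/-.

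Mylk (ENSMUSG00000022836, chromosome 16) encodes myosin light chain kinase. Its locus also yields a long non-muscle form and telokin, which gene counts do not separate. Mylk had 278, 271, 221 and 283 CPM in Gata5-/- replicates 1 to 4, 335, 356, 339.7 and 355 CPM in the Gata5+/- libraries, and 426, 489, 383 and 471 CPM in wildtype. No pair of groups overlapped. For Mylk, the log2 fold change was -0.75 (SE 0.12) for Gata5-/- against wildtype, -0.35 (SE 0.12, exact permutation p = 0.0286) for Gata5+/- against wildtype and -0.40 (SE 0.12, exact permutation p = 0.0286) for Gata5-/- against Gata5+/-.

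Acta2 (ENSMUSG00000035783, chromosome 19) encodes smooth muscle alpha-actin, the actin of the thin filament, and has the CArG matches with 1 G or C printed above. Acta2 had 865, 832, 932 and 1252 CPM in Gata5-/- replicates 1 to 4, 1090.2, 1234, 1073 and 1294 CPM in the Gata5+/- libraries, and 1302, 1552, 1172 and 1744 CPM in wildtype. Replicate 4 of Gata5-/- reached into the range of both other groups, and the other 3 lay below them. The fitted Acta2 log2 fold change was -0.57 (SE 0.14) for Gata5-/- against wildtype, -0.30 (SE 0.14) for Gata5+/- against wildtype and -0.27 (SE 0.14) for Gata5-/- against Gata5+/-. For both of those last comparisons the exact permutation p was 0.114.

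Actg2 (ENSMUSG00000059430, chromosome 6) encodes smooth muscle gamma-actin, the actin of enteric and other visceral smooth muscle, and was the rarest of the 10. Actg2 had 10.4, 8.03, 3.44 and 20.4 CPM in Gata5-/- replicates 1 to 4, 21.0, 23.5, 20.3 and 23.6 CPM in the Gata5+/- libraries, and 20.5, 38.3, 39.0 and 32.3 CPM in wildtype. These were 50 to 495 counts per Gata5-/- library, 402 to 487 per Gata5+/- library and 395 to 816 per wildtype library. Replicate 4 of Gata5-/- lay just under the lowest wildtype library and just above the lowest Gata5+/- library, and wildtype replicate 1 lay within the range of Gata5+/-. Its log2 fold change was -1.61 (SE 0.37) for Gata5-/- against wildtype, -0.56 (SE 0.36, exact permutation p = 0.114) for Gata5+/- against wildtype and -1.06 (SE 0.36, exact permutation p = 0.0571) for Gata5-/- against Gata5+/-. Its coefficient of variation in the Gata5-/- libraries, 68.0%, was the highest of any member in any group.

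Among the actin-binding proteins, Cnn1 (ENSMUSG00000001349, chromosome 9) encodes calponin 1, which restrains the myosin ATPase. Cnn1 had 119, 153, 173 and 184 CPM in Gata5-/- replicates 1 to 4, 202, 208, 234 and 219 CPM in the Gata5+/- libraries, and 239, 332, 229 and 304 CPM in wildtype. The Gata5-/- libraries lay below all others, and replicate 3 of Gata5+/- lay just above the lowest wildtype library. The fitted Cnn1 log2 fold change was -0.81 (SE 0.15) for Gata5-/- against wildtype, -0.35 (SE 0.14, exact permutation p = 0.0571) for Gata5+/- against wildtype and -0.46 (SE 0.14, exact permutation p = 0.0286) for Gata5-/- against Gata5+/-.

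Synpo2 (ENSMUSG00000050315, chromosome 3) encodes synaptopodin 2, an actin-bundling protein of muscle. Synpo2 had 204, 208, 179 and 265 CPM in Gata5-/- replicates 1 to 4, 286, 314, 292 and 334 CPM in the Gata5+/- libraries, and 364, 410.0, 345 and 399.7 CPM in wildtype. As for Mylk, no pair of groups overlapped. For Synpo2, the log2 fold change was -0.83 (SE 0.13) for Gata5-/- against wildtype, -0.31 (SE 0.13, exact permutation p = 0.0286) for Gata5+/- against wildtype and -0.52 (SE 0.13, exact permutation p = 0.0286) for Gata5-/- against Gata5+/-.

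Tagln (ENSMUSG00000032085, chromosome 9) encodes transgelin, also called SM22 alpha, an actin cross-linker. Tagln had 744, 605, 805 and 926 CPM in Gata5-/- replicates 1 to 4, 1147, 995, 872 and 1009 CPM in the Gata5+/- libraries, and 1136, 1361, 1052 and 1277 CPM in wildtype. The Gata5-/- libraries lay below wildtype, and Gata5+/- overlapped both other groups. The fitted Tagln log2 fold change was -0.65 (SE 0.13) for Gata5-/- against wildtype, -0.26 (SE 0.13, exact permutation p = 0.0857) for Gata5+/- against wildtype and -0.39 (SE 0.13, exact permutation p = 0.0571) for Gata5-/- against Gata5+/-.

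Lmod1 (ENSMUSG00000048096, chromosome 1) encodes leiomodin 1, which nucleates actin filaments in smooth muscle. Lmod1 had 170.3, 169.9, 116 and 193 CPM in Gata5-/- replicates 1 to 4, 166, 231, 200.1 and 209.6 CPM in the Gata5+/- libraries, and 206, 256, 203 and 259 CPM in wildtype. The Gata5-/- libraries lay below wildtype, while Gata5+/- spanned from inside the range of Gata5-/- into that of wildtype. For Lmod1, the log2 fold change was -0.51 (SE 0.15) for Gata5-/- against wildtype, -0.19 (SE 0.15, exact permutation p = 0.229) for Gata5+/- against wildtype and -0.31 (SE 0.15, exact permutation p = 0.114) for Gata5-/- against Gata5+/-.

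Smtn (ENSMUSG00000020439, chromosome 11) encodes smoothelin, an actin-binding protein of fully contractile smooth muscle. Smtn had 154, 197, 144 and 136 CPM in Gata5-/- replicates 1 to 4, 160.1, 173, 202 and 179 CPM in the Gata5+/- libraries, and 197, 229.9, 153 and 168 CPM in wildtype. Every pair of groups overlapped, and replicate 2 of Gata5-/- equalled wildtype replicate 1 to the nearest CPM. The fitted Smtn log2 fold change was -0.24 (SE 0.14) for Gata5-/- against wildtype, -0.07 (SE 0.14, exact permutation p = 0.743) for Gata5+/- against wildtype and -0.18 (SE 0.14, exact permutation p = 0.2) for Gata5-/- against Gata5+/-. An opposite-strand gene, Gm11946, overlaps Smtn exons and had 8.70% to 21.0% as many counts as Smtn, and whether reads were assigned by strand remains unknown. The same limit holds for Tagln, where overlapping Pcsk7 and Gm48529 had 3.16% to 7.39% and 1.63% to 9.46% as many counts as Tagln, and for Mylk, where no overlapping gene exceeded 4.89%.

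Across the genome, edgeR's quasi-likelihood test with Benjamini-Hochberg adjustment called no gene of 19346 in Gata5+/- against wildtype, where 86 genes were lower and 156 (0.806%) higher at an unadjusted p under 0.05 and DESeq2 called 6. For the 10 members the adjusted p was 0.999997 in each case, and DESeq2 called none of them. At an unadjusted p under 0.05, 5 of the 10 were lower, against 0.445% of all genes. In 3 of the 10, Myh11, Mylk and Synpo2, Gata5+/- lay below wildtype without overlap, against 0.915% of all genes, and 0.0286 is the smallest p that the exact two-sided permutation test of 4 against 4 can give. All 10 fold changes were negative, against 49.7% of all genes, and their median was -0.32, against 0.00 over all genes (log2).

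For Gata5-/- against Gata5+/- edgeR called no gene of 19346 either, with 403 lower and 213 (1.1%) higher at an unadjusted p under 0.05 and 7 called by DESeq2, none of them a member. The adjusted p was 1.0 for every member. At an unadjusted p under 0.05, 7 of the 10 were lower, against 2.08% of all genes, and in 3 of the 10, Mylk, Cnn1 and Synpo2, the groups did not overlap, against 2.03% of all genes. All 10 fold changes were negative, against 55.4% of all genes, with a median of -0.38, against -0.04 over all genes. Both comparisons share libraries with the comparison that chose the members. A low Gata5-/- group and a high wildtype group thus enter them by choice. The shares over all genes are therefore no chance level for the members. The unadjusted and exact permutation p-values of the members in both comparisons carry the same limit.

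The counts in Gata5-/- against wildtype follow from the choice of the members by that comparison and support nothing. There, edgeR called 4 of the 10 (Myh11, Mylk, Cnn1 and Synpo2) and 0.0258% of all genes, all lower. The groups did not overlap for 7 of the 10 and for 1.99% of all genes, and all 10 fold changes were negative, as were 53.9% of all genes. The median was -0.70, against -0.03 over all genes. The count of 4 became 7 without replicate 4 of Gata5-/-, 2 without replicate 1 or replicate 2 of Gata5-/- and 1 without wildtype replicate 2. It was 0 without both libraries that stand apart and 0 with only the 8 libraries of these groups in the fit. Without both libraries that stand apart, the members' median was -0.61 for Gata5-/- against wildtype, -0.27 for Gata5+/- against wildtype and -0.33 for Gata5-/- against Gata5+/-. The authors' deposited table marks 6 of the 10 as lower, Myh11, Mylk, Cnn1, Tagln, Actg2 and Synpo2, among 33 marked genes. In the authors' deposited table Acta2 has an adjusted p of 0.0235 and is not marked, with a log2 fold change of -0.55 that is smaller than 0.58.

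**Figure D2:**
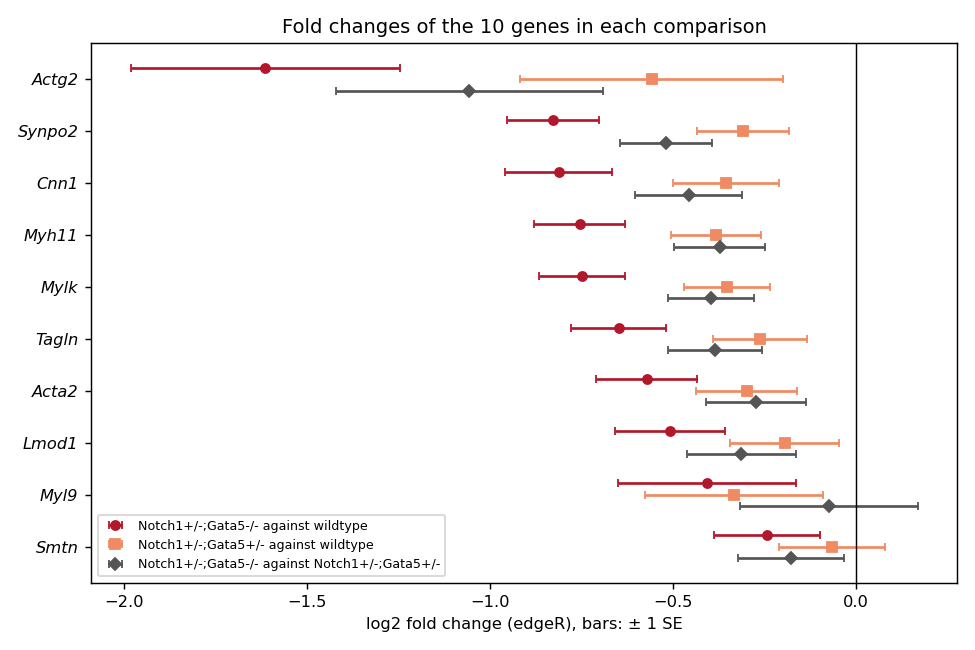
Fitted log2 fold change (x axis, edgeR, whiskers ± 1 SE, 0 marked by the vertical line) of the 10 genes in the 3 comparisons, from all 12 libraries. All points lie left of 0, and the comparison of Notch1+/-;Gata5-/- with wildtype, shown in red, runs from -1.61 for Actg2 to -0.24 for Smtn and chose the genes.

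The place of the middle group differed among the members. On the log2 scale it ran from 24.7% of the way up from Gata5-/- to wildtype for Myl9 to 77.9% for Smtn. For Myh11, Acta2, Mylk and Cnn1 it was 50.8%, 50.2%, 53.7% and 58.3%, and for Actg2 72.0%. The Gata5+/- libraries were also the most alike. Their coefficient of variation was the lowest of the 3 groups for 8 of the 10 members, with 3.01% for Mylk and 24.3% for Myl9 as the extremes. It ran from 10.8% to 68.0% in the Gata5-/- libraries and from 7.99% to 26.3% in wildtype. Among 10268 genes with a mean log2 CPM of at least 3, 50.7% also had their lowest variation in Gata5+/-, so low variation in that group was common among genes at large.

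Some pools stood at the edge of their group for many members. Replicate 4 of Gata5-/- was the highest of its group for 8 of the 10 members, and wildtype replicate 3 was the lowest of its group for 8. Wildtype replicates 2 and 4 were the highest of theirs for 5 and 4 members. In Gata5+/-, replicate 1 was lowest for 6 and replicate 4 highest for 5. Replicate 4 of Gata5-/- was also the most deeply counted library, with 25059653 counts, and its part in these values was not tested.

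**Figure D3:**
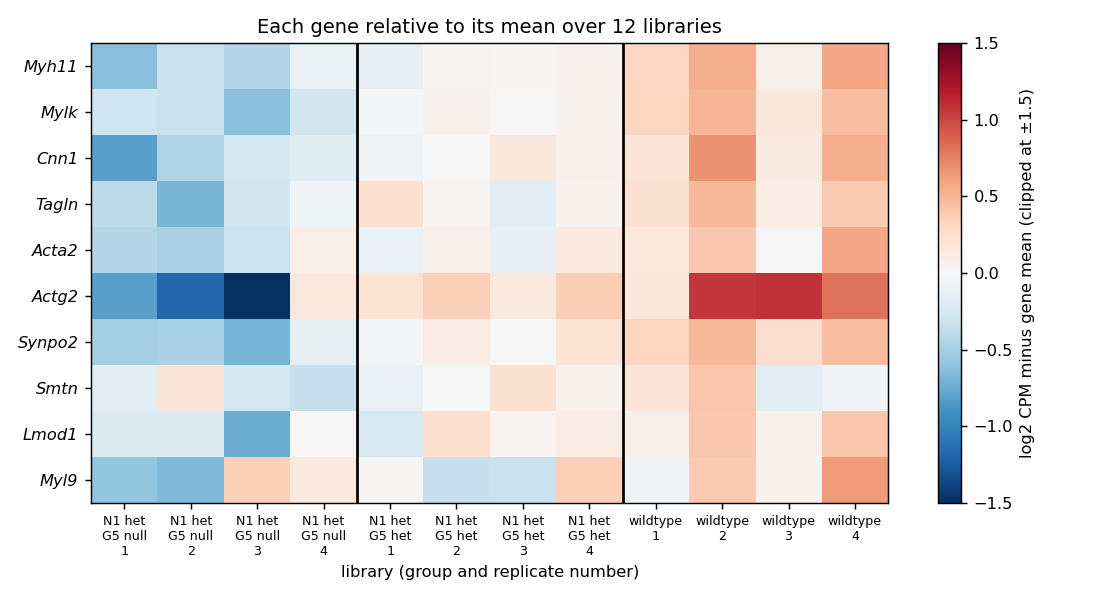
Each gene's log2 CPM minus its mean over the 12 libraries (colour, blue below and red above the mean, clipped at ±1.5), with libraries in columns by group and replicate number. The columns of Notch1+/-;Gata5-/- (N1 het, G5 null) are mostly blue and those of wildtype mostly red, and the palest of the Notch1+/-;Gata5-/- columns is replicate 4, the highest of its group for 8 of the 10 genes.

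To see whether the genes moved together between pools of 1 genotype, the group means were subtracted from log2 CPM and Pearson's r was computed over the 12 libraries, where the values of a library share its depth and scaling. These correlations are descriptions without a test. The 45 pairs of members had a median r of 0.46 (range -0.40 to 0.89), and 38 were positive. The median was 0.005 over 965355 pairs of genes taken at even steps through those with a mean log2 CPM of at least 1. These genes were not matched to the members in level. The closest pairs were Mylk with Lmod1 (0.89), Myh11 with Cnn1 (0.86) and Myh11 with Acta2 (0.85). Against the mean of the other 9 members, r was 0.89 for Synpo2, 0.88 for Myh11, 0.87 for Acta2, 0.72 for Mylk, 0.68 for Lmod1 and 0.64 for Cnn1. It was 0.49 for Tagln and for Actg2, 0.32 for Myl9 and 0.00 for Smtn, the lowest of the 10. Tagln varied most closely with Acta2 (0.73) and Myl9 (0.70), and Actg2 with Synpo2 (0.79) and Lmod1 (0.76).

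**Figure D4:**
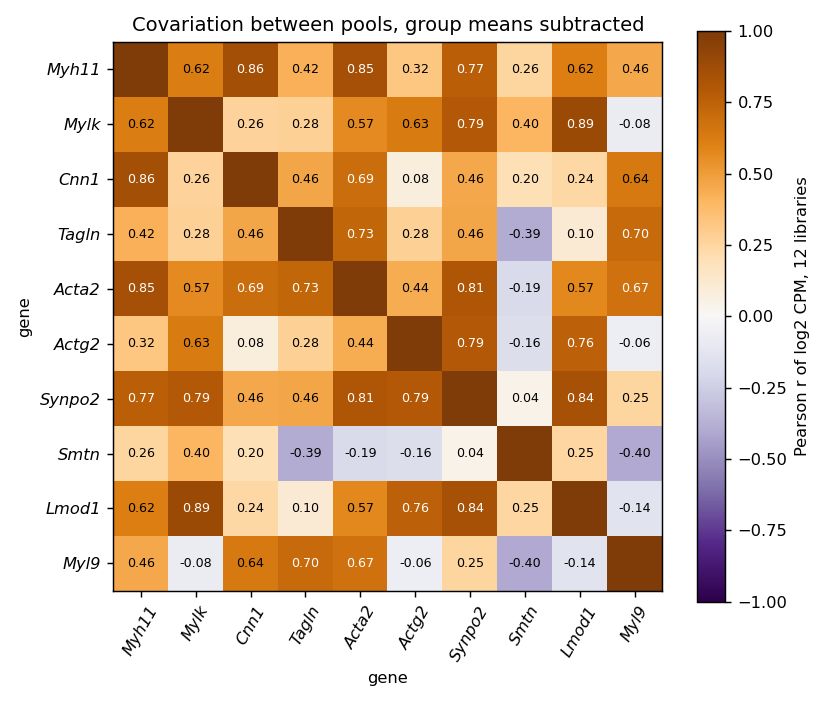
Pearson's r between each pair of the 10 genes over 12 libraries, from log2 CPM with group means subtracted (colour and printed value, orange positive, purple negative). Myh11, Acta2, Synpo2, Mylk and Lmod1 form a block of values from 0.57 to 0.89, and Smtn is negative with 4 members, down to -0.40 with Myl9.

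Over the same 12 libraries, a score of the members (mean of scaled log2 CPM, group means subtracted) was set beside 11 measures of the libraries. With the share of counts taken by the elastin gene Eln, Pearson's r was 0.76 and Spearman's rho 0.73, and r was 0.45 without wildtype replicates 2 and 4. Eln took 6.30% to 8.94% of counts in Gata5-/-, 7.55% to 9.68% in Gata5+/- and 8.36% to 12.5% in wildtype. With the log10 of total counts r was 0.63 (rho 0.62), 0.81 without Gata5-/- replicates 2 and 3, and 0.32 without Gata5-/- replicate 4 alone. With ventricular muscle markers r was -0.02 (rho 0.20), but 0.64 without wildtype replicate 2 and Gata5+/- replicate 1, so a single value describes that relation poorly. Exact permutation within groups, adjusted over the 11 measures by Benjamini-Hochberg, gave r adjusted p-values of 0.139 for total counts and 0.267 for Eln. No measure had an adjusted p below 0.139. The 23 settings given below include a fit with the ventricular score as a covariate and a fit with Eln counts left out before scaling. In all of them the sign of all 10 members held in Gata5-/- against wildtype. Beyond these fits, the part of Eln, depth and muscle content in the members' differences was not tested.

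The genes whose pattern was most like the score were ranked among 13765 genes with a symbol and a mean log2 CPM of at least 1. Between pools within groups the first 8 were Psap, Tgfb3, Mfap4, Tpm2, Smarcc1, Col14a1, Polr3gl and Map4k4, with r from 0.92 to 0.89 and a median of 0.07 over the genes ranked. With the group differences kept they were Cpe, Vcl, Fblim1, Lrrc17, Tomm6, Mfap4, Pcdh7 and Ube4a. Their r ran from 0.95 to 0.91, with a median of 0.08 over the genes ranked. The members were chosen by a group difference, so this second ranking favours genes that share it and is a description only. Tpm2, a tropomyosin, and Vcl, the focal adhesion protein vinculin, belong to the wider list below. Mfap4, a microfibril-associated protein, appears in both rankings.

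The wider contraction list held 40 further genes of thin filaments, focal adhesions, the light chain phosphatase, calcium handling and cyclic GMP signalling. None was called in any comparison. The list was drawn up with earlier results of these data known, so the shares over all genes are no chance level for it. In Gata5-/- against wildtype 34 of the 40 fold changes were negative and 13 were lower at an unadjusted p under 0.05, against 53.9% and 3.36% of all genes, with a median of -0.21, against -0.03 over all genes (log2). In Gata5+/- against wildtype 29 were negative and 4 were lower at that level, against 49.7% and 0.445% of all genes, with a median of -0.06, against 0.00. In Gata5-/- against Gata5+/- 35 were negative and 4 were lower, against 55.4% and 2.08% of all genes, with a median of -0.12, against -0.04. Vcl averaged 336 ± 73.3 CPM in Gata5-/-, 413 ± 27.6 CPM in Gata5+/- and 507 ± 72.9 CPM in wildtype (SD, n = 4 each). Ppp1r12a, the targeting subunit of myosin light chain phosphatase, averaged 318 ± 67.2 CPM in Gata5-/-, 391 ± 17.7 CPM in Gata5+/- and 447 ± 16.6 CPM in wildtype. Tpm2 averaged 177 ± 27.4 CPM in Gata5-/-, 189.7 ± 3.87 CPM in Gata5+/- and 248 ± 46.3 CPM in wildtype, so that its Gata5+/- level lay near that of Gata5-/-. Myl6, the essential light chain shared by smooth and non-muscle myosin, averaged 301 ± 21.4 CPM in Gata5-/-, 301 ± 35.4 CPM in Gata5+/- and 377 ± 32.7 CPM in wildtype, so its means were alike in the mutant groups. Flna, the actin cross-linker filamin A, averaged 3178 ± 148 CPM in Gata5-/-, 3435 ± 258 CPM in Gata5+/- and 4054 ± 565 CPM in wildtype. Pdlim7, a PDZ and LIM domain protein, had a log2 fold change of -0.49 (SE 0.19) in Gata5-/- against Gata5+/-. Each of these 6 had an adjusted p of at least 0.341 in every comparison.

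Relatives of the members that other cells use gave a measure inside each library. Of 22 listed, 20 were tested and none was called. In Gata5-/- against wildtype 14 of the 20 fold changes were negative, with a median of -0.10, in Gata5+/- against wildtype 11, with a median of -0.02, and in Gata5-/- against Gata5+/- 15, with a median of -0.06. Over all genes, 53.9%, 49.7% and 55.4% were negative in these comparisons, with medians of -0.03, 0.00 and -0.04. Mylk4, a kinase related to Mylk, averaged 50.3 ± 17.4 CPM in Gata5-/-, 86.6 ± 13.2 CPM in Gata5+/- and 89.3 ± 9.97 CPM in wildtype (adjusted p = 0.436 for Gata5-/- against wildtype in edgeR). Myh10, a non-muscle myosin heavy chain, averaged 1121 ± 243 CPM in Gata5-/-, 1268 ± 78.5 CPM in Gata5+/- and 1446 ± 270 CPM in wildtype. Acta1, skeletal alpha-actin, and Myh14, another non-muscle heavy chain, had positive log2 fold changes of 0.72 (SE 0.34) and 0.62 (SE 0.30) in Gata5-/- against wildtype. Cnn2, Actg1 and Mylk2 were each among the 3 relatives with the smallest p of a comparison, and their log2 fold changes were -0.24 (SE 0.16) for Cnn2 in Gata5+/- against wildtype, and -0.29 (SE 0.20) for Actg1 and -1.69 (SE 1.30) for Mylk2 in Gata5-/- against Gata5+/-.

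The ratio of a member to its relative within a library does not depend on library scaling. It still carries the choice of the members, so a ratio that separates Gata5-/- from wildtype is a description only. The log2 ratio of Myh11 to the non-muscle heavy chain Myh9 was -0.10, 0.08, 0.13 and 0.27 in replicates 1 to 4 of Gata5-/-, 0.44, 0.48, 0.39 and 0.39 in Gata5+/-, and 0.87, 0.83, 0.88 and 0.76 in wildtype. The groups stood apart with no overlap, while Myh9 itself averaged 1299 ± 76.9 CPM in Gata5-/- and 1327 ± 251 CPM in wildtype (SD, n = 4 each). Per kilobase, Myh11 made up 46.4% ± 1.40 of the RNA of Myh9, Myh10, Myh11 and Myh14 in Gata5-/-, 50.9% ± 0.604 in Gata5+/- and 56.1% ± 1.72 in wildtype. The log2 ratio of Synpo2 to its relative Synpo was -1.24 to -0.68 in Gata5-/-, -0.55 to -0.29 in Gata5+/- and -0.16 to -0.12 in wildtype, also with no overlap. For Acta2 over the cytoplasmic actin Actb it was 0.00 to 0.32 in Gata5-/-, 0.22 to 0.45 in Gata5+/- and 0.47 to 0.68 in wildtype, so that the mutant groups overlapped and wildtype lay above both. Cnn1 over Cnn2 and Tagln over Tagln2 overlapped more widely, at -0.10 to 0.70 and 3.39 to 4.15 in Gata5-/-, 0.61 to 1.03 and 3.76 to 3.98 in Gata5+/-, and 0.79 to 1.04 and 4.06 to 4.70 in wildtype. Myl9 over its relative Myl12a overlapped throughout, at -0.51 to 0.85 in Gata5-/-, -0.26 to 0.41 in Gata5+/- and 0.14 to 0.79 in wildtype. Lmod1 over its relative Lmod2 did too, at -0.06 to 0.37 in Gata5-/-, -0.01 to 0.68 in Gata5+/- and 0.33 to 1.85 in wildtype. The 1.85 came from wildtype replicate 2 alone, and wildtype replicates 1, 3 and 4 had 0.42, 0.33 and 0.57. A ratio shows unequal change and not which of its genes changed.

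**Figure D5:**
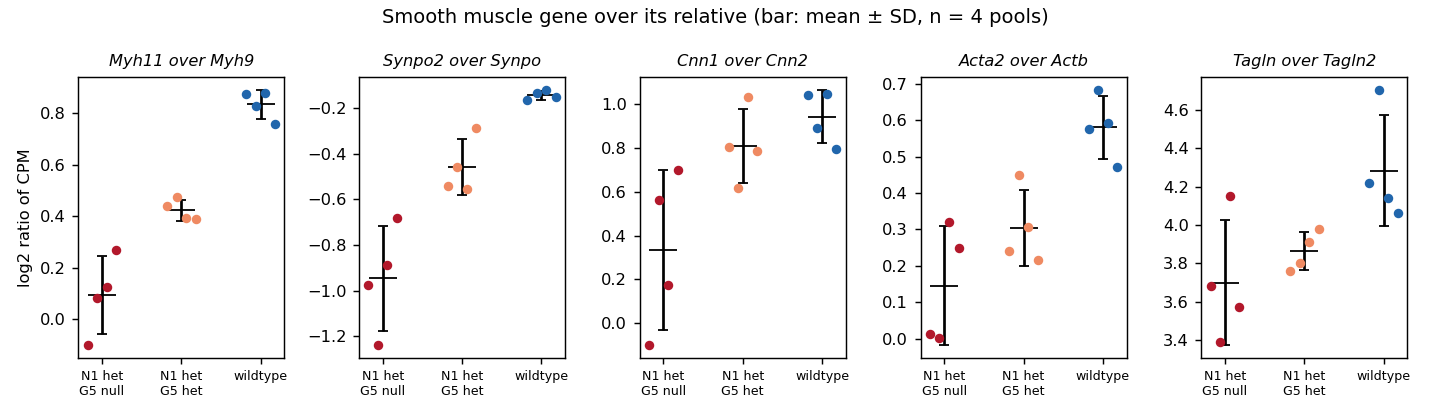
Log2 ratio of the CPM of a smooth muscle gene to that of its relative (y axis, a scale of its own in each panel) in each library, with the mean as a bar and the SD as whiskers (n = 4 pools). Groups run from Notch1+/-;Gata5-/- (N1 het, G5 null) on the left over Notch1+/-;Gata5+/- to wildtype on the right, and only Myh11 over Myh9 and Synpo2 over Synpo, of the 5 ratios drawn, separate all 3 groups.

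Transcription factors and signals known to act on these genes had fold changes of both signs. Of 15 listed regulators none was called in any comparison, and 6 had a negative fold change in Gata5-/- against wildtype, with a median of 0.02 (log2). The counts were 7 of 15 negative in Gata5+/- against wildtype, with a median of 0.01, and 7 of 15 in Gata5-/- against Gata5+/-, also with a median of 0.01. Srf averaged 21.7 ± 5.47 CPM in Gata5-/-, 31.5 ± 7.49 CPM in Gata5+/- and 27.7 ± 3.08 CPM in wildtype (SD, n = 4 each). Myocd, the partner of Srf, was named after its values were seen and averaged 92.2 ± 13.9 CPM in Gata5-/-, 108 ± 19.4 CPM in Gata5+/- and 108 ± 10.1 CPM in wildtype. Tbx20, a T-box factor of valve and heart, averaged 676 ± 77.0 CPM in Gata5-/-, 632 ± 59.3 CPM in Gata5+/- and 566 ± 47.9 CPM in wildtype. Gata6, a GATA factor of vascular smooth muscle, averaged 113 CPM in Gata5-/-, 92.3 CPM in Gata5+/- and 99.2 CPM in wildtype. Foxf1 and Klf5 were rare, with means of 0.0234 and 3.11 CPM in Gata5-/-, 0.560 and 4.25 CPM in Gata5+/-, and 0.864 and 2.71 CPM in wildtype. The Foxf1 mean in Gata5-/- lay below the 0.124 to 0.207 CPM that 3 counts would be there.

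Markers of other cells of the valve and its surroundings were measured beside the members. Of 13 mural cell markers other than the members (Des is also in the wider contraction list), 6 had a negative fold change in Gata5-/- against wildtype, none was called, and their summed level was 2551 to 3284 CPM in Gata5-/-, 2484 to 3255 CPM in Gata5+/- and 2907 to 3762 CPM in wildtype. Among them Itga8, an integrin of smooth muscle and fibroblasts, averaged 612 ± 112 CPM in Gata5-/-, 741 ± 67.9 CPM in Gata5+/- and 914 ± 144 CPM in wildtype, and was picked for its small p after its values were seen. In Gata5-/- against wildtype, 7 of the 13 mural markers had a positive fold change, and the median over the 13 was 0.04 (log2). The 12 valve interstitial markers summed to 31226 to 35395 CPM in Gata5-/-, 31418 to 37425 CPM in Gata5+/- and 28470.2 to 36573 CPM in wildtype, with 6 of 12 negative in Gata5-/- against wildtype. The 12 endothelial markers summed to 1116 to 1479 CPM in Gata5-/-, 1069 to 1438 CPM in Gata5+/- and 1055 to 1306 CPM in wildtype, with 2 of 12 negative. The 12 ventricular muscle markers summed to 40446 to 57876 CPM in Gata5-/-, 30627 to 58027 CPM in Gata5+/- and 24569 to 53309 CPM in wildtype, with 0 of 12 negative and a median log2 fold change of 0.17 in Gata5-/- against wildtype. The 8 atrial muscle markers summed to 622 to 806 CPM in Gata5-/-, 615 to 1069 CPM in Gata5+/- and 779 to 1217 CPM in wildtype, with 7 of 8 negative. Dkk3, with means of 530 CPM in Gata5-/-, 541 CPM in Gata5+/- and 573 CPM in wildtype, made up most of that sum. The median log2 fold change of the 8 atrial markers was -1.24 for Gata5-/- against wildtype, -0.71 for Gata5+/- against wildtype and -0.37 for Gata5-/- against Gata5+/-, beside -0.70, -0.32 and -0.38 for the 10 members. Between pools within groups, the atrial markers had an r of -0.22 (rho -0.31) with the member score. Kcna5 went the other way, with means of 20.3 CPM in Gata5-/-, 14.8 CPM in Gata5+/- and 12.6 CPM in wildtype. Myl7, an atrial myosin light chain, averaged 37.8 ± 41.6 CPM in Gata5-/-, 53.5 ± 72.3 CPM in Gata5+/- and 107 ± 83.9 CPM in wildtype (SD, n = 4 each). Nppa, the atrial natriuretic peptide gene, averaged 34.3 ± 13.2 CPM in Gata5-/-, 37.8 ± 15.7 CPM in Gata5+/- and 57.7 ± 9.11 CPM in wildtype, and edgeR called no atrial marker in any comparison. The 12 macrophage markers summed to 193 to 223 CPM in Gata5-/-, 206 to 279 CPM in Gata5+/- and 207 to 244 CPM in wildtype, with 8 of 12 negative. The 10 markers of fat, Schwann and pigment cells summed to 54.0 to 133 CPM in Gata5-/-, 85.3 to 107 CPM in Gata5+/- and 59.8 to 128 CPM in wildtype, with 6 of 10 negative. No marker of any of these lists was at 0 in every library of a group, so heart muscle RNA was present in all 3 groups. No list was free of overlap between the groups in its summed level. Beyond the fit with the ventricular score as a covariate, the part of these cells in the members' differences was not tested.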

How the data were processed

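RNA was sequenced from 12 pools of aortic valves. The authors deposited raw counts per gene. A second table that the authors deposited gives, per gene, the mean normalized signal, log2 fold change with its standard error, Wald statistic (a score without a unit) and p-value, raw and adjusted, for a comparison that it does not name. For the members, its log2 fold changes match those of a DESeq2 fit here of Notch1+/-;Gata5-/- against wildtype. Myh11 had -0.731 and Acta2 -0.549 in both. Per the submitters' processing notes, Trim Galore, STAR 2.7.10b, DESeq2 1.34.0 and the build GRCm39 were used. The sources used here state neither the counting tool, nor the annotation release, nor the strand setting.

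Symbols came from the authors' deposited table for 13959 genes and from GENCODE M21 (GRCm38) names for 6077, and 584 had none. Exon lengths came from that annotation, which is another build than that of the counts. R 4.3.3 and edgeR 4.0.16 were used. The default expression filter kept 19346 genes and removed 1274. After TMM scaling, the robust quasi-likelihood model had 1 coefficient per group and used all 12 libraries. Benjamini-Hochberg adjustment ran over the genes tested, with calls under 0.05. The common biological CV was 0.680. Two-sided exact permutation tests over pools were added for single genes and, within groups, for the r of the member score. All p-values measure the spread between pools. Log2 CPM used a prior count of 2. Floors cover counting error only. The edgeR fit was also run on counts simulated from its own fitted spread, which does not test whether that spread suits these data.

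The members and lists were chosen with earlier results of these data known. Named are all members, Notch1 and Gata5, the 3 genes with the smallest p per comparison in the lists of relatives, wider contraction genes and regulators, and the 8 most like the member score in each ranking. One gene of the wider list that this rule names is not reported here. As alternatives, scaling was by RLE or upper quartile, the filter was left out or made stricter (at least 4 libraries with a CPM of 1 or more), and DESeq2 1.42.0 or limma-voom (limma 3.58.1) replaced edgeR. The thresholds of the authors (0.1 for adjusted p, 0.58 for the absolute log2 fold change) were also applied. Further fits used only the groups compared, left out each library or both that stand apart, took the replicate number as a block, or had the ventricular score as a covariate. Leaving out Eln counts before scaling was added after seeing the data.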

Additional observations from a re-analysis of the deposited data

How the results depend on the processing

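For Notch1+/-;Gata5-/- against wildtype, 5 genes and 4 members were called. The counts were 47 genes and 7 members with DESeq2, 8 genes at the authors' thresholds, 0 genes and 0 members with only the 8 libraries compared, and 2 genes and 0 members without both libraries that stand apart. Leaving out 1 library gave 2 (without wildtype replicate 2) to 21 genes (without Notch1+/-;Gata5-/- replicate 4) and 1 to 7 members, with 3 genes without Notch1+/-;Gata5-/- replicate 1. For Notch1+/-;Gata5+/- against wildtype 0 genes were called, and 6 with DESeq2. For Notch1+/-;Gata5-/- against Notch1+/-;Gata5+/- 0 genes were called, 7 with DESeq2, 2 without both libraries that stand apart, and 0 to 1 without 1 library. Why these counts moved was not tested, beyond the fewer samples that leaving libraries out implies.

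Over 23 settings the sign of all 10 members held in Notch1+/-;Gata5-/- against wildtype. Smtn turned to 0.047 (log2) in Notch1+/-;Gata5+/- against wildtype without both libraries that stand apart, and ran from -0.15 to 0.047 without 1 library. Myl9 ran from -0.27 to 0.091 without 1 library in Notch1+/-;Gata5-/- against Notch1+/-;Gata5+/-. The r of the member score without 1 library ran from -0.33 to 0.33 with genes at 0, -0.48 to 0.27 with the mitochondrial share, -0.066 to 0.61 with mural markers, -0.21 to 0.59 with ventricular markers (0.055 with an unscaled score), -0.50 to 0.061 with atrial markers and -0.19 to 0.41 with macrophage markers.

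Same-numbered replicates of different groups had correlations of -0.025 to 0.213 between their deviations, so the numbers were not taken to pair the pools. With the replicate number as a block, 7 genes and 5 members were called in Notch1+/-;Gata5-/- against wildtype and 0 genes in the other comparisons. Depth limits Actg2 most, at 50 counts in its lowest library.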
